A study of Mus musculus with 12 samples.

Results

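The comparison was between tumors of mice given IL-27 that carried a targeting peptide and tumors of mice given IL-27 with a non-specific peptide. It took 8 of the 12 RNA-seq libraries of the series, chosen by their treatment labels: the 4 libraries of the 27pepL arms (27pepL and 27pepL→18) against the 4 of the IL-27 arms (IL-27 and 27→18). Each of these 4 groups held 2 libraries, so that the peptide was compared across 4 against 4 libraries with IL-18 given or not as a term in the fit. The remaining 4 libraries, from mice given the empty vector (pMCS) or IL-18, were used only as control values beside single genes.

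The tumors were TC2R, a TRAMP-C2 mouse prostate tumor line made to carry activated H-ras, grown under the skin of C57BL/6 males. The cytokine genes were given as plasmids delivered into muscle by sonoporation, and all 4 groups compared here received a plasmid in this way. In 27→18 and 27pepL→18, recombinant IL-18 was injected into the tumor after the plasmid. The tumors were taken on day 26, and each library was made from RNA pooled from 4 to 6 tumors. It is not stated that the paired libraries of one group hold tumors of different animals, so that the p-values below measure the spread between pools, which may be technical. A single cell line in 1 mouse strain and sex, with muscle as the site of plasmid delivery, limits all groups alike. Total counts ran from 52128526 to 76620862 in these 8 libraries.

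IL-27 is a heterodimer of p28 (Il27) and EBI3 (Ebi3) that signals through IL-27Rα (Il27ra) and gp130 (Il6st), by STAT proteins such as STAT3, and is known for driving interferon-like and T helper type 1 programs. The peptide pepL was designed to bind IL-6Rα (Il6ra), a receptor chain found on tumor cells and several leukocytes, and was attached to the C terminus of IL-27 to bring the cytokine to cells that carry it. SOCS3 is the feedback inhibitor that STAT3 induces, and the IκB proteins hold NF-κB in the cytoplasm and are themselves NF-κB target genes.

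Levels are given as CPM (counts scaled to the library's total) after TMM scaling, differences as log2 fold change ± SE (27pepL arms minus IL-27 arms, so that a negative value is lower with the peptide), and p-values are those of edgeR's quasi-likelihood test with Benjamini-Hochberg adjustment over all 19993 genes tested. Where all 4 libraries of one side lay beyond all 4 of the other, the arms are said not to overlap. Transcripts of liver and skeletal muscle, 245 of the genes tested, were set aside from all counts: the liver transcripts ran at 919 to 4100 raw CPM in the 2 IL-27 libraries and at 134 to 379 in the other 6, and some, such as Alb, were listed at 0 in the other 6. That left 19748 genes. Alb was at 206 and 215 CPM in IL-27, 198 and 199 in pMCS, and 133 and 171 in IL-18. Such transcripts thus split 27pepL from IL-27 without IL-18, but not 27pepL→18 from 27→18.

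No gene differed between the 27pepL and IL-27 arms at an adjusted p under 0.05 in the edgeR test, a percent called of 0. The lowest adjusted p among the 19748 genes was 0.417 (Nfkbie), and DESeq2 run on the same terms called 10 genes higher and 37 lower. Unadjusted, 676 genes (3.42%) had a p under 0.05, of which 217 (1.1%) had higher and 459 (2.32%) lower levels in the 27pepL arms. That count of 676 was 414 without 27pepL replicate 1 and 1054 without IL-27 replicate 2. With a log2 fold change beyond 1 as well, 81 genes (0.41%) were higher and 347 (1.76%) were lower. The higher and lower counts were 168 and 245 without IL-27 replicate 1, 134 and 676 without IL-27 replicate 2, and 121 and 545 without 27pepL→18 replicate 2. The arms did not overlap for 335 higher genes (1.7%) and 438 lower genes (2.22%), together 3.91% of the genes. Which side had more of them depended on the scaling, with 405 higher and 403 lower under RLE factors, and 434 higher and 289 lower under a correction for GC content that was chosen after seeing the data. The median log2 fold change of all genes was -0.09 and, without replicate 1 of IL-27, -0.01.

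IL-27 replicate 1 stood apart from the other 7 libraries, with a mean correlation of 0.875 to them where the others had 0.915 to 0.935. Its adipocyte transcripts reached 25600 raw CPM, against 339 to 1240 in the other 7, and mitochondrially encoded transcripts took 7.26% of its counts, against 1.37% to 4.36%. The main counts and many of the results that rest on it are therefore given with and without it. Without it, 634 of 20917 genes (3.03%) had an unadjusted p under 0.05, 281 of them higher (1.34%) and 353 lower (1.69%), and edgeR called 1 gene at an adjusted p under 0.05. The markers of the labelled tumor overlapped between the sides: vimentin (Vim), a mesenchymal filament protein, ran from 2190 to 3220 CPM in the 27pepL arms and from 1770 to 2960 in the IL-27 arms, and the epithelial genes Epcam and Cdh1 reached at most 3.17 and 3.7 CPM in any of the 8.

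The promoters of 4 genes that recur below are printed here because their arms did not overlap and they are known targets of NF-κB (Nfkbie and Cxcl1) or of STAT proteins (Socs3 and Cish). The sequences are from RefSeq (build GRCm38.p6), 5′ to 3′, 300 bases each around the annotated start, with matches on either strand to the κB consensus or to the STAT palindrome TTCNNNGAA in capitals.
Nfkbie promoter, chr17:45555450-45555749, plus strand: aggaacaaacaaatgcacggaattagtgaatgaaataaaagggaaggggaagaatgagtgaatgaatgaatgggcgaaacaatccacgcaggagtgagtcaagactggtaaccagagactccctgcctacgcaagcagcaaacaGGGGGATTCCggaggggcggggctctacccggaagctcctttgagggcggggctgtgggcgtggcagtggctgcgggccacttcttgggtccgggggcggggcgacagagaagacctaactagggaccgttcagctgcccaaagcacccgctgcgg
Cxcl1 promoter, chr5:90890995-90891294, plus strand: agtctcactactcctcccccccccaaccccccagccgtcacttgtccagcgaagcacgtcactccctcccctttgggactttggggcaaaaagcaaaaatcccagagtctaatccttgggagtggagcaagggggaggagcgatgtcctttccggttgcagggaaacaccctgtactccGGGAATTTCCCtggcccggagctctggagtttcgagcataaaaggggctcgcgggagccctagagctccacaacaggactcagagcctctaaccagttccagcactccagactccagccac
Socs3 promoter, chr11:117969317-117969616, minus strand: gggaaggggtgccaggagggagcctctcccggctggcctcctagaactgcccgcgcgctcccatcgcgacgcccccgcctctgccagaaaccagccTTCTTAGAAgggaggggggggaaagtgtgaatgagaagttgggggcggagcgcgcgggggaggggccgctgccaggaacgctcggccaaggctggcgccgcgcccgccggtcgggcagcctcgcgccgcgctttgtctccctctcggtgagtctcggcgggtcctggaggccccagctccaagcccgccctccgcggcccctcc
Cish promoter, chr9:107296409-107296708, plus strand: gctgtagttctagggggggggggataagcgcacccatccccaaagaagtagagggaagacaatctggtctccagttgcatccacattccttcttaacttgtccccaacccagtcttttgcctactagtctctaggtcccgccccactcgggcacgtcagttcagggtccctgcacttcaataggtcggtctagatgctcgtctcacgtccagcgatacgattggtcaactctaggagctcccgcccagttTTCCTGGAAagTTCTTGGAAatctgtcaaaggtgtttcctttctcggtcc
The κB consensus matched once in Nfkbie and, on both strands of one overlapping stretch, at 2 places in Cxcl1, and 4.51% of the 32851 promoters in that table hold it. The STAT palindrome matched once in Socs3 and at 2 places in Cish, and 8.3% of the promoters hold it. A match is a stretch of letters and not a measured binding site. Of the other NF-κB and STAT3 list genes whose arms did not overlap, Nfkbia held 1 κB match, Nfkbib and Lcn2 held neither motif, and Relb was not matched in the table.

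Nfkbie encodes IκBε, an inhibitor of NF-κB, and was the gene with the smallest p outside the set-aside transcripts. Its level was 18.6 and 8.96 CPM in the IL-27 libraries, 12.3 and 13.6 in 27→18, 2.85 and 4.5 in 27pepL, and 3.02 and 4.34 in 27pepL→18. All 4 peptide libraries were thus below all 4 others, by -1.84 on the log2 scale without IL-18 and -1.83 with it. The log2 fold change was -1.86 ± 0.33 (unadjusted p = 0.000538, adjusted p = 0.417 in the edgeR test), and -1.60 without IL-27 replicate 1. The empty vector libraries had 8.89 and 4.62 CPM and the IL-18 libraries 9.18 and 8.56, all of them between the sides except the first IL-18 library, which lay at the low end of the IL-27 arms. DESeq2 gave Nfkbie an adjusted p of 1e-04, so that its call rests on the choice of test.

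The NF-κB list, with Nfkbie counted in it, leaned the same way with the 8 libraries. Of 30 genes tested, 23 had a log2 fold change below 0, 3 were lower at an unadjusted p under 0.05 (2.32% of all genes were) and none higher, and the arms did not overlap for 5, all lower, where 2.22% of all genes did so. The list median was -0.32 with all 8 libraries. Without IL-27 replicate 1 it was -0.04, beside -0.005 for all genes. Then 3 were lower and 1 higher at an unadjusted p under 0.05 (1.69% and 1.34% of all genes were). Cxcl1, a neutrophil chemokine, was at 9.31 and 6.14 CPM in IL-27, 13.6 and 8.53 in 27→18, 4.47 and 3.95 in 27pepL, and 5.73 and 4.01 in 27pepL→18 (-1.03 ± 0.30, unadjusted p = 0.00959, adjusted p = 0.966 in edgeR's test). The highest peptide library, 27pepL→18 replicate 1, lay just under the lowest of the others. The pMCS libraries had 6.06 and 3.58 CPM and the IL-18 libraries 4.14 and 5.6, all below the lowest of the IL-27 arms. Nfkbib (IκBβ) ran from 15.9 to 21.6 CPM against 23 to 34, Relb, an NF-κB subunit, from 21 to 31 against 31.9 to 47, and Nfkbia (IκBα) from 51.4 to 55.6 against 59.4 to 70.7. For Nfkbib and Relb the gap between the sides was small beside the spread within them, and for Nfkbia it was small beside the spread of the IL-27 arms. The unadjusted p of these 3 ran from 0.0663 to 0.181 in edgeR's test. With a correction for GC content the arms of Nfkbib and Relb overlapped, while those of Nfkbie, Cxcl1 and Nfkbia did not.

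Among the cytokines, receptors and signal transducers of the pathway, Socs3 was the only one of the 15 genes given here whose arms did not overlap. Of all genes, 3.91% did not overlap, and 2.22% were lower in this way. Its level was 84.2 and 51.2 CPM in IL-27, 56 and 55.4 in 27→18, 36.6 and 44.5 in 27pepL, and 34.2 and 49.6 in 27pepL→18. The sides came close, at 49.6 against 51.2 CPM, and IL-27 replicate 1 was the highest. The log2 fold change was -0.57 ± 0.23 (unadjusted p = 0.0402, adjusted p = 0.966 in edgeR's test), -0.38 without IL-27 replicate 1 (unadjusted p = 0.123), and with the GC correction the arms overlapped.

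Il6ra, the receptor that the peptide was designed to bind, was at 30.6 and 15.8 CPM in IL-27, 21.8 and 13.1 in 27→18, 18.8 and 13.9 in 27pepL, and 20 and 17.5 in 27pepL→18. The sides overlapped over most of their range (-0.20 ± 0.31 on the log2 scale, unadjusted p = 0.544 in edgeR's test). The shared chain Il6st likewise ran from 42.3 to 105 CPM against 44.9 to 177, and Stat3 from 68.9 to 130 against 52.3 to 122. Il27ra was at 3.37 to 5.05 CPM in the 27pepL arms and 2.6 to 4.33 in the IL-27 arms other than IL-27 replicate 1, which had 12.9. Ebi3 ran from 1.99 to 3.38 CPM against 0.928 to 13.5, and Il6 was at most 2.74 CPM in any library. Il18 ran from 2.34 to 3.24 CPM against 1.39 to 9.35, and of the IL-18 receptor chains Il18r1 ran from 0.271 to 0.516 against 0.353 to 9.04 and Il18rap from 18.8 to 31 against 24.2 to 29.1. All of these overlapped. Il27, which was delivered to muscle and not to the tumor, was at most 0.371 CPM in 7 libraries and at 1.2 in IL-27 replicate 1.

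The interferon genes turned on 1 library. Cxcl9, an interferon-γ-induced T cell chemokine, had 279 and 1.17 CPM in IL-27, 46.4 and 27.2 in 27→18, 8.14 and 7.94 in 27pepL, and 15.6 and 16.9 in 27pepL→18. The highest and the lowest of the 8 values were thus the 2 replicates of IL-27, with all peptide libraries between them. Ifng itself was at 2.31 CPM in IL-27 replicate 1 and at 0.0482 to 0.229 in the other 7. The log2 fold changes were -2.65 for Cxcl9, -0.82 for Cxcl10, -1.34 for Ifng and -1.27 for Tbx21, the T helper type 1 regulator, and without IL-27 replicate 1 they were 0.01, 0.09, 0.22 and 1.50. None of the 4 had an unadjusted p under 0.05 with or without that library.

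**Figure D1:**
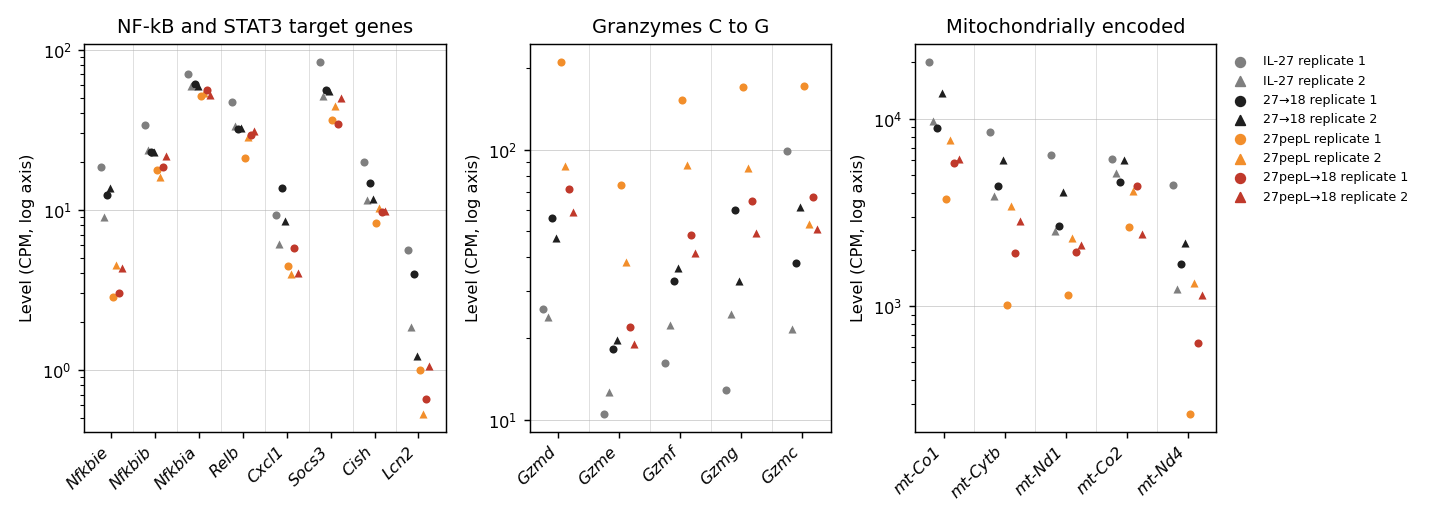
Level of each gene in CPM on a log axis for the 8 libraries, with color for the group and marker shape for the replicate, in 3 panels (NF-κB and STAT3 target genes, granzymes C to G, mitochondrially encoded genes). The 4 peptide libraries lie below the others for Nfkbie (2.85 to 4.5 against 8.96 to 18.6 CPM), while for Gzmd to Gzmg the 27pepL libraries stand highest.

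The same dependence ran through 12 immune lists, covering interferon-stimulated genes, the interferon-γ axis, antigen presentation by MHC class I and II, checkpoints, and markers of T, NK, B and mast cells, macrophages, dendritic cells and leukocytes at large. In all 12 the mean log2 CPM was highest in IL-27 replicate 1 and lowest in IL-27 replicate 2. All 12 medians were below 0 with the 8 libraries, from -1.35 to -0.45, and all 12 were above 0 without IL-27 replicate 1, from 0.14 to 0.87. Of 282 list entries tested, 1 had a higher and 4 a lower level with unadjusted p under 0.05, a smaller share than the 3.42% of all genes. Without that library 10 were higher and none lower, against 1.34% of all genes higher. All 34 interferon-stimulated genes had a log2 fold change below 0 with the 8 libraries, none at an unadjusted p under 0.05, and their median went from -0.63 to 0.34. The T cell median went from -1.16 to 0.40 and the macrophage median from -0.45 to 0.43. No direction can therefore be given for these cells. In bulk RNA, fewer cells of a type and less RNA per cell cannot be told apart.

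**Figure D2:**
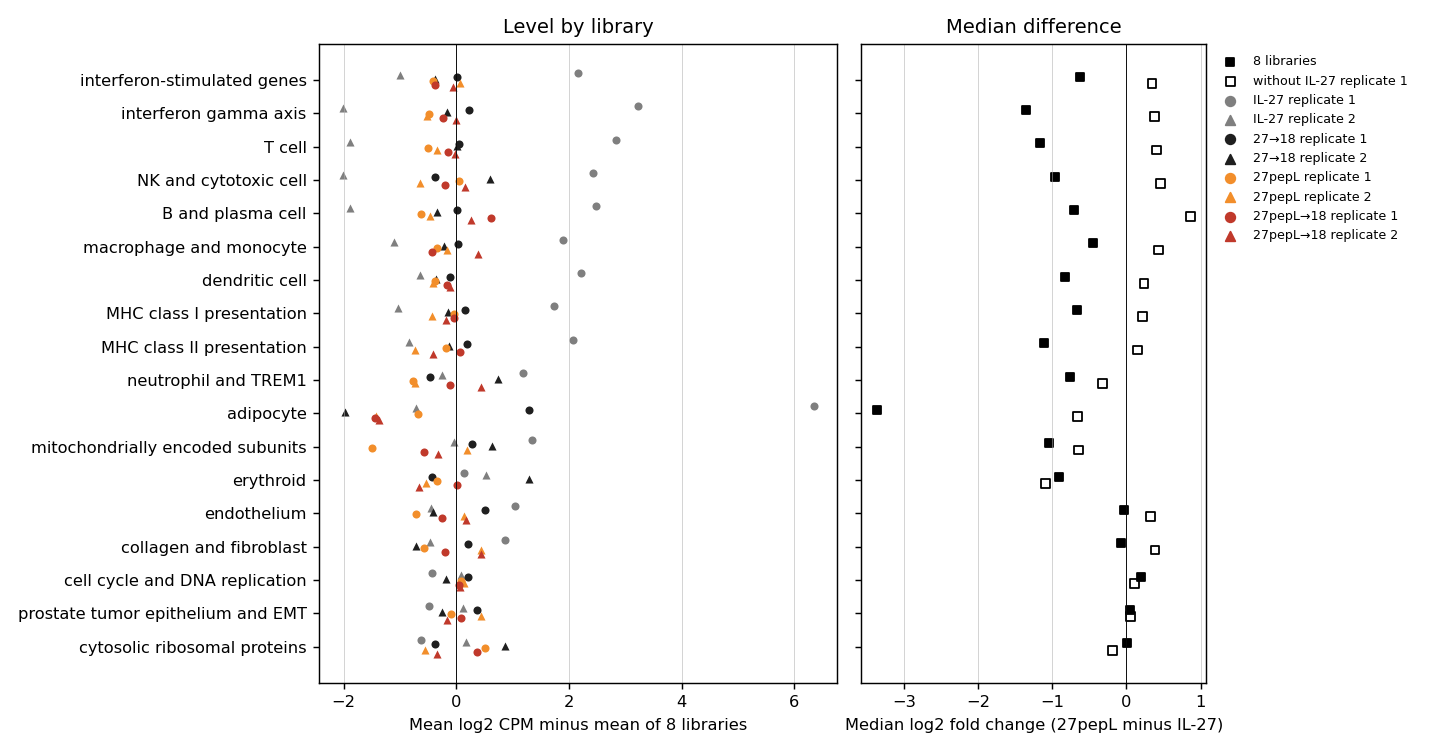
Left, the mean log2 CPM of 18 gene lists in each of the 8 libraries, minus the list's mean over the 8. Right, the median log2 fold change of each list (27pepL minus IL-27 arms) with the 8 libraries (filled) and without IL-27 replicate 1 (open). IL-27 replicate 1 is far to the right for immune and adipocyte lists, and the immune medians move from below 0 to above 0 when it is left out.

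The neutrophil and TREM1 list kept its direction without IL-27 replicate 1, with a median of -0.77 and then -0.32. Of 23 genes tested, 18 had a log2 fold change below 0 and 5 above. At an unadjusted p under 0.05, 5 were lower (2.32% of all genes were) and 5 again without that library (1.69% of all genes), and none was higher. These were Cxcl1 and Il1b, the calprotectin subunits S100a8 and S100a9, and lipocalin 2 (Lcn2), a STAT3 target found in neutrophil granules. S100a9 was at 5.12 and 12.9 CPM in IL-27, 1.27 and 18 in 27→18, 1.07 and 0.723 in 27pepL, and 3.31 and 3.68 in 27pepL→18. The sides overlapped, since 27→18 replicate 1 was as low as the peptide libraries (-2.39 ± 0.84, unadjusted p = 0.0219 in edgeR's test, and -2.48 without IL-27 replicate 1). Lcn2 ran from 0.53 to 1.05 CPM against 1.22 to 5.58 with no overlap (-1.94 on the log2 scale, and -1.46 without IL-27 replicate 1). Il1b was at 6.36 to 8.25 CPM against 7.07 to 60.4, and at most 16.8 CPM without IL-27 replicate 1. The neutrophil markers Ly6g and Cxcr2 were low throughout and overlapped. Ly6g ran from 0.33 to 0.832 CPM against 0.185 to 1.71 (-0.77 on the log2 scale, unadjusted p = 0.343 in edgeR's test), and Cxcr2 from 0 to 0.736 against 0.222 to 2.75 (-1.71, unadjusted p = 0.295). The receptor Csf3r had a log2 fold change of -2.29 (unadjusted p = 0.0508), and of -0.66 without IL-27 replicate 1 (unadjusted p = 0.135, by edgeR's test). Other neutrophil genes went the other way. With the GC correction, Cxcr1, Stfa2l1 and Retnlg were at 6.04, 0.76 and 0.40 on the log2 scale (unadjusted p = 0.0583, 0.654 and 0.697 in edgeR's test). These values are not from the fit used for the genes above. With the same correction S100a9 was at -2.39 and Lcn2 at -1.75. The CPM of Cxcr1 is not given here, so the size of its value should not be read as a fold.

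The STAT3 target list, which shares Socs3, Lcn2 and Icam1 with other lists, had 15 of 23 genes below 0, 3 of them lower at an unadjusted p under 0.05 (2.32% of all genes were), and a median of -0.57 that moved to -0.11 without IL-27 replicate 1. Cish, a SOCS family member induced by STAT proteins, was at 20 and 11.5 CPM in IL-27, 14.7 and 11.7 in 27→18, 8.21 and 10.2 in 27pepL, and 9.72 and 9.79 in 27pepL→18. The arms did not overlap, by a gap of 10.2 to 11.5 CPM, and the test gave -0.60 ± 0.27 (unadjusted p = 0.0539 in edgeR's test). IL-27 replicate 1 was the highest, and without it the log2 fold change of Cish was -0.39. Lrg1, a glycoprotein of the acute phase, had 132 CPM in IL-27 replicate 1 and 0.891 to 16.4 in the other 7. Its log2 fold change was -3.92 (unadjusted p = 0.0311), and -1.94 without that library (unadjusted p = 0.00612, by edgeR's test), and the arms overlapped.

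All 13 mitochondrially encoded subunits of the respiratory chain had a log2 fold change below 0. The median was -1.05, and -0.65 without IL-27 replicate 1, and 5 of 13 were lower at an unadjusted p under 0.05 (2.32% of all genes were), but only 1, mt-Co1, without that library (1.69% of all genes). The arms did not overlap for 4 of them, mt-Co1, mt-Cytb, mt-Nd1 and mt-Co2, where 2.22% of all genes were lower in this way. The core cytochrome oxidase subunit mt-Co1 was at 20200 and 9740 CPM in IL-27, 8880 and 13700 in 27→18, 3720 and 7680 in 27pepL, and 5820 and 6090 in 27pepL→18. All peptide libraries were lower, the nearest by 7680 against 8880 CPM (-1.16 ± 0.38, unadjusted p = 0.0156, and -0.86 with an unadjusted p of 0.0327 without IL-27 replicate 1, by edgeR's test). For mt-Co1 the pMCS libraries had 17600 and 10500 CPM, within the range of the IL-27 arms. The IL-18 libraries had 7440 and 7130 CPM, within the range of the 27pepL arms. The 64 nuclear encoded subunits of the respiratory chain had a median of -0.02, with 34 below 0 and 2 lower at an unadjusted p under 0.05 (2.32% of all genes were). A trend with transcript length, a sign of RNA quality, was taken from each gene's log2 level minus its mean over the 8 libraries. Its rank correlation across genes ran from -0.41 to 0.17 in the IL-27 arms and from -0.20 to 0.30 in the 27pepL arms. With that trend as a term the fold change of mt-Co1 was -1.29 on the log2 scale. With the GC correction it was -1.14.

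The erythroid list had a median of -0.91, of -1.09 without IL-27 replicate 1 and of -0.43 without IL-27 replicate 2. Of 11 genes, 4 were lower at an unadjusted p under 0.05 (2.32% of all genes were), and 6 without IL-27 replicate 1 (1.69% of all genes). Hemoglobin Hbb-bs ran from 59.5 to 104 CPM in the 27pepL arms, against 119, 268 and 637 CPM in 3 of the IL-27 libraries and 86.5 in 27→18 replicate 1. Hbb-bs and Hbb-bt are near-identical copies, so that the split of reads between them is uncertain.

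The granzymes were looked at after their values were seen. Of 10 tested, Gzmd and Gzmf were higher with no overlap of the arms, against 1.7% of all genes, and Gzmd, Gzme, Gzmf and Gzmg were higher at an unadjusted p under 0.05 (1.1% of all genes were). Only Gzmf kept an unadjusted p under 0.05 without IL-27 replicate 1 (0.0482). In all, 6 of the 10 had a log2 fold change above 0 and 4 below, among them Gzma (-2.32) and Gzmb (-0.62), neither at an unadjusted p under 0.05. Gzmd, Gzme, Gzmf and Gzmg, serine proteases of activated cytotoxic lymphocytes, sit in one gene cluster in the mouse and are close paralogs, so that their reads may be shared. Gzmd was at 25.6 and 24.1 CPM in IL-27, 55.8 and 46.9 in 27→18, 212 and 87.1 in 27pepL, and 71.7 and 58.6 in 27pepL→18. By group the level was lowest in IL-27, next in 27→18, then 27pepL→18, and highest in 27pepL. With IL-18 it was thus higher than without it in the IL-27 arms, and lower in the 27pepL arms. The log2 fold change was 1.46 ± 0.52 (unadjusted p = 0.0234, adjusted p = 0.966 in edgeR's test) and 1.15 without IL-27 replicate 1 (unadjusted p = 0.0769). Gzmf was at 16.2 and 22.5 CPM in IL-27, 32.5 and 36.6 in 27→18, 153 and 87.4 in 27pepL, and 48.3 and 41.5 in 27pepL→18, and the empty vector libraries had 35.1 and 7.61 CPM.

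The granzyme difference lay mainly in the arms without IL-18, the groups that the liver transcripts also split. Whether these are linked was not tested. Without IL-18 the log2 difference of 27pepL from IL-27 was 2.45 for Gzmd, 2.21 for Gzme, 2.60 for Gzmf and 2.76 for Gzmg, and with IL-18 it was 0.34, 0.10, 0.37 and 0.35. The interaction of peptide and IL-18 had unadjusted p of 0.00798, 0.00537, 0.00318 and 0.011 in edgeR's test and an adjusted p of 1 for each. Gzmb, the best known granzyme of cytotoxic T cells, was at 14.1 and 12.2 CPM in 27pepL and 55.6 and 4.47 in IL-27, which overlap, and the marker Cd3e ran from 0.362 to 0.833 CPM in the 27pepL arms. Over all genes, 377 (1.91%) had an interaction at an unadjusted p under 0.05 and none at an adjusted p under 0.05 in edgeR's test, while DESeq2 called 22.

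Among the 12 genes highest by the naming rule, Ppig, Pcdhgc3, Ibtk, Gpm6b, Rin2, Ppp3ca, Ube3a, Abl2, Eml4, Igfbp3, Itm2c and Adra2a, none passed the adjusted threshold. Ppig, a nuclear peptidyl-prolyl isomerase that binds splicing factors, was at 27.6 and 27.3 CPM in IL-27, 27.5 and 21.2 in 27→18, 87.8 and 103 in 27pepL, and 99.2 and 33.9 in 27pepL→18. The IL-27 arms were tight and the peptide arms spread widely, with 27pepL→18 replicate 2 nearest to the other side (1.62 ± 0.33, unadjusted p = 0.00125, adjusted p = 0.648 in edgeR's test). The empty vector libraries had 128 and 30 CPM, which spans both sides. Igfbp3, a binding protein that limits insulin-like growth factor, was at 134 and 231 CPM in IL-27, 318 and 306 in 27→18, 548 and 422 in 27pepL, and 452 and 464 in 27pepL→18. Its peptide libraries were above all 4 others, with pMCS at 234 and 222 and IL-18 at 326 and 377 (0.98 ± 0.28, unadjusted p = 0.00766 in edgeR's test).

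Abl2, a tyrosine kinase that remodels actin, ran from 39.6 to 66.3 CPM in the 27pepL arms against 8.76 to 39.4 in the IL-27 arms, a difference of 0.71 on the log2 scale without IL-18 and 2.52 with it (interaction unadjusted p = 0.0188, adjusted p = 1 in edgeR's test). Ppp3ca, the catalytic subunit of calcineurin, ran from 85.3 to 211 CPM against 44.5 to 71.8, and Ube3a, a ubiquitin ligase, from 21.1 to 39.6 against 10.7 to 16.6. Rin2, a regulator of Rab5, lay at 68.5 to 83.3 CPM against 40.8 to 57.5. Eml4, a microtubule-binding protein, was at 36.3 to 50.9 CPM against 14.5 to 35.7, and Ibtk at 42.3 to 57.8 against 24.5 to 37.7. Gpm6b, a membrane glycoprotein, lay at 10.1 to 12.9 CPM against 3.66 to 7.27, Itm2c at 219 to 308 against 143 to 214, and the α2A adrenergic receptor Adra2a at 11.1 to 19.5 against 5.81 to 10.4. Pcdhgc3, at 58.5 to 262 CPM against 20.2 to 56.1, belongs to the protocadherin γ cluster, whose members share exons, so that its count is uncertain. Of 17 members tested 7 were above 0 and 10 below. Pcdhgb8, which the naming rule leaves out because it is annotated as a polymorphic pseudogene, lay the other way, at 0 to 0.989 CPM against 7.29 and 279 in IL-27 and 5.56 and 187 in 27→18 (-7.93 ± 1.84, unadjusted p = 0.00259, adjusted p = 0.906 in edgeR's test).

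**Figure D3:**
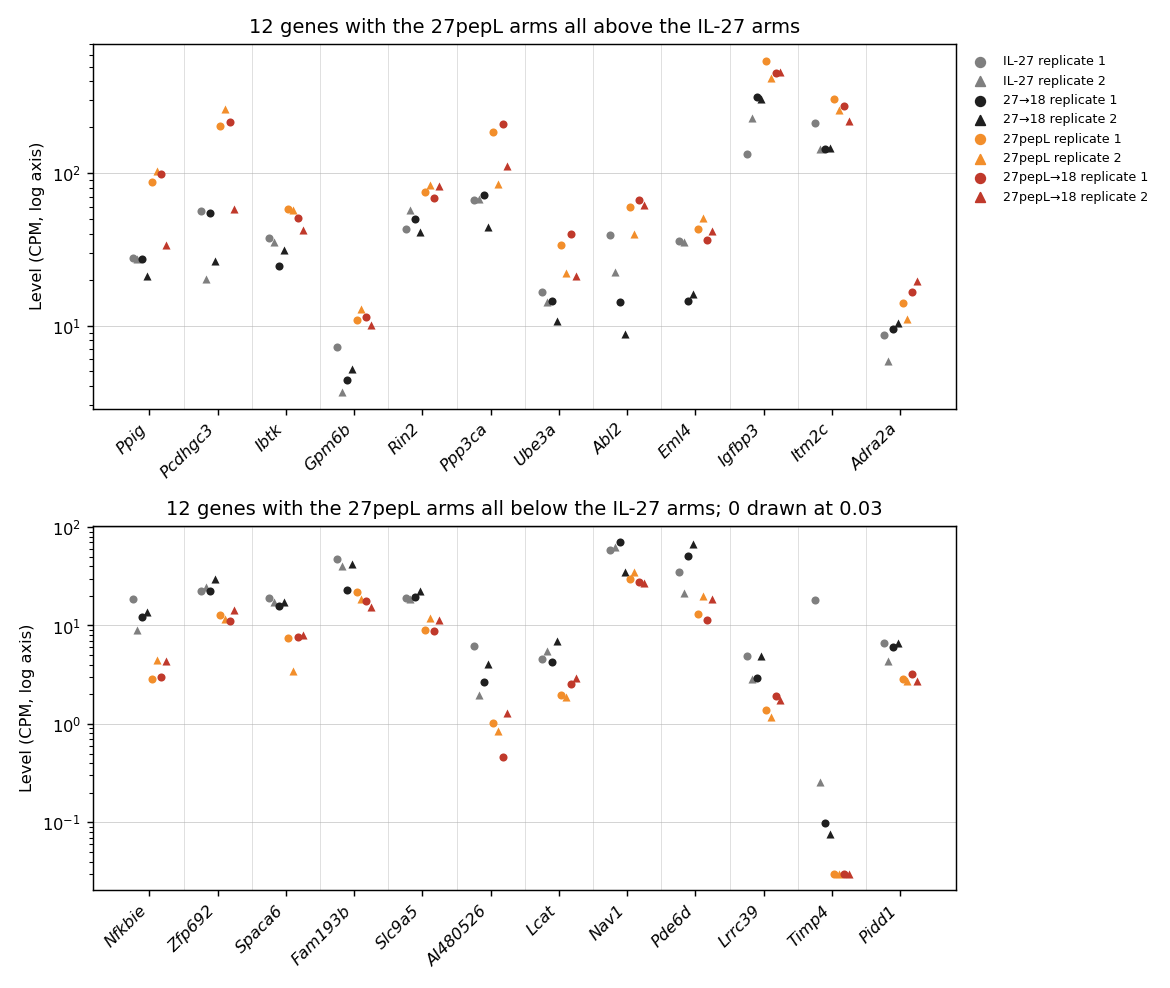
Level in CPM on a log axis of the 12 genes above (top) and the 12 genes below (bottom) in the 27pepL arms by the naming rule, 1 point per library, with color for the group and shape for the replicate. Nfkbie and Igfbp3 show 4 peptide libraries apart from 4 others, and Timp4 rests on IL-27 replicate 1 at 18.3 CPM with the peptide libraries at 0.

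The 12 lowest by the same rule were Nfkbie, Zfp692, Spaca6, Fam193b, Slc9a5, AI480526, Lcat, Nav1, Pde6d, Lrrc39, Timp4 and Pidd1. Zfp692, a zinc finger protein, was at 22.5 and 24.8 CPM in IL-27, 22.5 and 29.6 in 27→18, 12.8 and 11.6 in 27pepL, and 11.1 and 14.4 in 27pepL→18. Both sides were tight (-0.99 ± 0.21, unadjusted p = 0.00156, adjusted p = 0.695 in edgeR's test), although the pMCS libraries ranged from 18.5 to 39.4. Pidd1, a p53 target that assembles the PIDDosome, lay at 2.71 to 3.21 CPM against 4.34 to 6.65, and Slc9a5, a sodium-proton exchanger, at 8.87 to 11.9 against 18.4 to 22.5. Fam193b ran from 15.3 to 21.7 CPM against 23.1 to 47.8, Nav1, a microtubule plus-end protein, from 26.7 to 35 against 35.2 to 69.8, and Pde6d, a prenyl-binding chaperone that carries Ras proteins, from 11.3 to 19.7 against 21.2 to 67.3. Spaca6, known from sperm-egg fusion, ran from 3.41 to 7.93 CPM against 15.9 to 19, but 1 pMCS library had 52.7. Lcat, which esterifies cholesterol in plasma lipoproteins and is made mainly in liver, lay at 1.88 to 2.92 CPM against 4.28 to 6.94, and the muscle protein Lrrc39 at 1.18 to 1.94 against 2.86 to 4.92, and neither was on the lists set aside. AI480526 lay at 0.465 to 1.29 CPM against 1.99 to 6.14.

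Timp4, an inhibitor of matrix metalloproteinases expressed in fat and heart, was at 0 CPM in all 4 peptide libraries and at 18.3 CPM in IL-27 replicate 1, with 0.076 to 0.26 in the other 3. Timp4 met the naming rule's limit on average log2 CPM, at 1.24, only through IL-27 replicate 1, so its place among the lowest genes rests on that library. Against a floor of 3 counts per library it was at least 108-fold lower in the peptide arms, and at least 3.34-fold lower without IL-27 replicate 1. The adipocyte list as a whole had a median of -3.37 with the 8 libraries, and -0.66 without IL-27 replicate 1, with Adipoq at 782 CPM in that library and 0.271 to 1.22 in the 27pepL arms.

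The stress response list had 15 of 25 genes above 0, with a median of 0.12, and an unadjusted p under 0.05 was reached by 1 higher gene (1.1% of all genes) and 1 lower gene (2.32% of all genes). Slc7a11, the cystine transporter, had the smallest p of the list. It was at 11.7 and 13 CPM in IL-27, 22 and 12.1 in 27→18, 33.3 and 42.9 in 27pepL, and 24.5 and 23.6 in 27pepL→18. The peptide libraries were all higher, the nearest at 23.6 against 22 CPM (1.06 ± 0.32, unadjusted p = 0.0111, adjusted p = 0.966 in edgeR's test). Without IL-27 replicate 1 the log2 fold change of Slc7a11 was 0.90. The pMCS libraries, at 27.4 and 24.4 CPM, lay within the range of the 27pepL arms, and the IL-18 libraries were at 19.1 and 35.4 CPM. The aminoacyl-tRNA synthetases and Mthfd2 were chosen after their values were seen. Of 20 cytosolic aminoacyl-tRNA synthetases, 17 had a log2 fold change above 0, with a median of 0.34 against -0.09 for all genes, and 15 without IL-27 replicate 1, with a median of 0.19. The arms did not overlap for Nars, Lars, Cars and Yars, all higher, where 1.7% of all genes were, and only Nars had an unadjusted p under 0.05, where 1.1% of all genes were higher. Nars ran from 309 to 432 CPM against 217 to 278. Mthfd2, a mitochondrial one-carbon enzyme, lay at 82.1 to 114 CPM against 50.6 to 70.7. Atf4, the transcription factor that induces these genes under amino acid stress, overlapped between the sides at 419 to 937 CPM against 245 to 654 (0.85 ± 0.38, unadjusted p = 0.055 in edgeR's test). Xbp1, of the unfolded protein response, was the lower gene of the stress list (-1.77 ± 0.70, unadjusted p = 0.0363 in edgeR's test, and -1.55 without IL-27 replicate 1). Its sides also overlapped, at 8.62 to 72.3 CPM against 24.7 to 170.

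Growth factor and vessel genes gave a few differences within lists whose medians with the 8 libraries were near that of all genes. Bmp4, a ligand of the TGF-β family, was at 15 and 18.1 CPM in IL-27, 32.4 and 23 in 27→18, 11.1 and 6.55 in 27pepL, and 0.794 and 3.18 in 27pepL→18. The arms did not overlap, and the gap was wider with IL-18 (-0.95 without and -4.09 with, interaction unadjusted p = 0.0166, adjusted p = 1 in edgeR's test). The common log2 fold change was -2.34 ± 0.75 (unadjusted p = 0.0143 in edgeR's test), and -2.84 without IL-27 replicate 1. The pMCS libraries, at 2.14 and 3.62 CPM, lay within the range of the 27pepL arms, and the IL-18 libraries were at 30.5 and 7.27 CPM. The TGF-β list had 12 of 23 genes above 0 and a median of 0.06. In the endothelial list, 14 of 29 genes were above 0 (median -0.03, and 0.33 without IL-27 replicate 1). At an unadjusted p under 0.05, 2 were higher (1.1% of all genes) and 1 lower (2.32%), and without that library 4 and 1 (1.34% and 1.69%). The lower gene, Prox1, did not overlap but lay near 0, at 0 to 0.0482 CPM against 0.076 to 1.22 (unadjusted p = 0.0133 in edgeR's test). Angpt2 was higher, at 21.4 to 60.3 CPM against 16.7 to 25.5 (0.78 on the log2 scale, unadjusted p = 0.0404 by the same test, and 0.70 without IL-27 replicate 1). Esm1, a marker of sprouting endothelial tip cells, lay at 13.9 to 40.9 CPM against 7.98 to 15.3 (1.36 on the log2 scale, unadjusted p = 0.00667 in edgeR's test), while Kdr, the main VEGF receptor, ran from 6.61 to 14.9 against 4.81 to 32.9. Etv5, a transcription factor induced by RAS-MAPK signaling, lay at 59.5 to 74.1 CPM against 39.6 to 57.1, within a list of 26 with 14 above 0. Cell cycle genes had 29 of 37 above 0 with a median of 0.20, and 0.11 without IL-27 replicate 1, but only 1 was higher at an unadjusted p under 0.05 (1.1% of all genes were).

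For the 24 genes of the naming rule, the control libraries did not settle on one side. Both pMCS libraries lay on the IL-27 side for 3 of the 12 higher and 3 of the 12 lower genes, both lay on the peptide side for none, and for the remaining 9 and 9 they were split or between. Both IL-18 libraries lay on the peptide side for 6 of the higher and 5 of the lower genes. For most of these genes 2 pMCS libraries therefore do not say which side differed from the empty vector.

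Base composition moved with the comparison. Among genes with an average log2 CPM of at least 1, the 282 higher genes without overlap had a median transcript GC content of 44.8%, the 247 lower genes 54.4%, and the 12675 others 49.6%. Over 10 bins of about 1320 genes, from the poorest in GC (median 39.6%) to the richest (median 59.3%), the share of genes higher without overlap went from 5.22% to 0.303%, the share lower went from 1.29% to 4.54%, and the median log2 fold change went from 0.07 to -0.15. In each library, a gene's log2 level minus its mean over the 8 libraries was set against GC content. The rank correlation across genes was -0.18 and -0.17 in 27pepL, 0.06 and -0.08 in 27pepL→18, 0.03 and 0.14 in IL-27, and 0.20 and 0.04 in 27→18, so that 27pepL stood lowest. When these trends were taken out by an offset, 262 of the 335 higher genes (78.2%) and 268 of the 438 lower genes (61.2%) still did not overlap, and in all 434 were higher and 289 lower without overlap. Of the transcripts that are not protein-coding, 22 of 696 antisense genes (3.16%) and 8 of 85 small nucleolar RNA genes (9.41%) were lower without overlap, against 1.98% of the protein-coding genes. Whether strand was used in the counting is not given in the sources used here, so that reads of an antisense gene and its partner may not be separate.

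**Figure D4:**
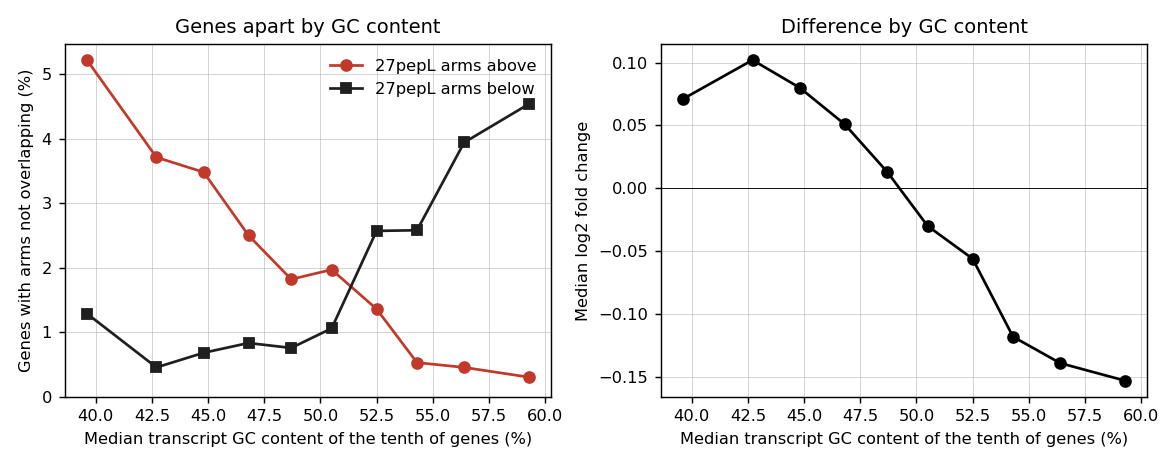
Left, the percent of genes whose arms did not overlap, above (circles) or below (squares), and right, the median log2 fold change, in 10 bins of genes ordered by transcript GC content (x axis, percent). The share above falls from 5.22% to 0.303% and the share below goes from 1.29% to 4.54% as GC content increases.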

How the data were processed

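RNA of pooled subcutaneous TC2R tumors was sequenced by the authors as stranded poly(A) libraries (TruSeq, NovaSeq, paired-end), trimmed with Cutadapt, checked with FastQC 0.11.3, aligned with HISAT2 and assembled with StringTie and gffcompare. Neither build nor annotation, nor how StringTie output became this table, was stated (not given in the sources used here). Per gene, the deposited values are whole-number counts, not normalized, for 55450 identifiers, all of which matched GENCODE M21. No column was left unused.

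Counts of the 8 libraries were filtered with filterByExpr, scaled by TMM and tested with edgeR 4.0.16 (R 4.3.3, limma 3.58.1) in a quasi-likelihood fit with a term for IL-18 and a term for the peptide (5 residual degrees of freedom, common dispersion 0.379). The study's thresholds (log2 fold change beyond 1 with p under 0.05, no adjustment) were counted too. The interaction of both terms was tested in a second fit. Levels of pMCS and IL-18 libraries were scaled by TMM over 12 libraries. The fit was tested on simulated data. At an adjusted p under 0.05 it recovered 1 of 50 genes changed 2-fold and 26 of 50 changed 4-fold, so that 2-fold differences would mostly be missed.

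Liver transcripts (162, from a list and a rule on raw CPM of at least 0.2 in the libraries of IL-27, pMCS and IL-18, with less than 0.1 elsewhere) and skeletal muscle transcripts (123 listed in the table) stayed in the fit and out of the counts. Named genes were the 12 with the smallest p in each direction among those with annotated names that are not pseudogenes or predicted genes, an average log2 CPM of at least 1 and arms that did not overlap, 16 genes of the cytokine pathways, 15 of which are reported here, and up to 3 members per list. Of 40 lists (1191 genes), some are given only among the closing observations. The members and the lists were chosen with earlier results of these data known. Transcript GC content and length were those of the longest GENCODE M21 transcript. Promoters were from RefSeq, GRCm38.p6. Alternatives were RLE factors, no filter, other terms and samples, a replicate block, DESeq2 1.42.0 and leaving out each library. A GC offset was added after seeing the data.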

Additional observations from a re-analysis of the deposited data

Results flagged for a closer look

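Dixon's limit at 95% was applied to 164 sets of 4 libraries, those of one side for each gene list, library measure and named gene. It flags about 1 in 20 sets of independent, normally spread values. The sets here share libraries, mix groups with and without IL-18, and include genes picked from these data, so that rate does not hold for them. In 13 sets, 1 value lay farther from the nearest other than the limit allows. Of these, 9 were IL-27 replicate 1, above the other 3 libraries of the IL-27 arms: the mean log2 CPM of the metalloproteinase list (5.28 against 4.47 to 4.61) and the CPM of Cxcl9 (279), Itm2c (214), Socs3 (84.2), Timp4 (18.3), Il27ra (12.9), Il18r1 (9.04), Tbx21 (4.66) and Ifng (2.31). In the same arms Ppig was low in 27→18 replicate 2 (21.2 CPM against 27.3 to 27.6). In the 27pepL arms, the muscle list was high in 27pepL→18 replicate 2 (mean log2 CPM -1.23 against -2.0 to -1.91), the adipocyte list was high in 27pepL replicate 1 (1.27 against 0.50 to 0.58), and Spaca6 was low in 27pepL replicate 2 (3.41 CPM against 7.4 to 7.93). No gene had an interaction of peptide and IL-18 past the adjusted threshold in edgeR's test, with 377 at an unadjusted p under 0.05 and 22 called by DESeq2.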

How the results depend on the processing

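The count of genes at an adjusted p under 0.05 was 0 in both directions in every edgeR fit, except 1 lower gene without the filter on low counts and 1 lower gene without IL-27 replicate 1. DESeq2 called 10 higher and 37 lower, among them Nfkbie, Ppig, Zfp692, Pcdhgc3, Spaca6, Slc9a5 and Lcat, and put 124 higher and 605 lower past the study's thresholds (log2 fold change beyond 1, p not adjusted). With those thresholds the lower genes were 588 without the filter, 565 without the IL-18 term and 608 with each library's length trend as a term. The cause was not tested. With 1 library left out the higher genes were 65 to 168 (most without IL-27 replicate 1) and the lower 239 to 676 (most without IL-27 replicate 2). Arms not overlapping were 530 to 717 higher and 616 to 886 lower with 1 library left out, as fewer libraries then have to be apart, and 289 lower with the GC offset, which was chosen after seeing the data. Interactions at an unadjusted p under 0.05 were 876 without the filter (4 at an adjusted p), 645 with DESeq2 (22 at an adjusted p), and 234 to 1782 with 1 library left out, lowest without 27→18 replicate 2 and highest without IL-27 replicate 2.

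With the replicate block, 64 genes were higher and 265 lower, 0 at an adjusted p under 0.05, and 264 interactions had an unadjusted p under 0.05. The block changed no call. The libraries share only a number, with correlations of same-numbered deviations between groups from -0.221 to 0.315.

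With 1 library left out, the log2 fold change ran from -1.15 to 0.33 for Ebi3, -0.75 to 0.15 for Il27ra, -0.49 to 0.30 for Il6st, -0.34 to 0.087 for Il6ra, -0.70 to 0.25 for Il6, -0.77 to 0.27 for Il18, -2.03 to 0.22 for Ifng, -1.83 to 1.504 for Tbx21, -3.16 to 0.014 for Cxcl9, -1.05 to 0.091 for Cxcl10 and -0.054 to 0.375 for Stat3. All turned above 0 without IL-27 replicate 1 except Stat3, which was above 0 with the 8 libraries and turned below 0 without 27→18 replicate 2 or 27pepL→18 replicate 1. Il6 also turned (0.25) without 27→18 replicate 1 and Il6st (0.02) without 27pepL replicate 1. None of these had an adjusted p under 0.05. With liver and muscle transcripts removed before the fit the adjusted p of Nfkbie went from 0.417 to 0.977 at the same fold change, because those transcripts held the smallest p-values.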

Other observations

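Rbp4, the plasma carrier of retinol made mainly in liver and fat, lay at 2.01 to 3.5 CPM in the 27pepL arms against 3.87 to 68.9 in the IL-27 arms, with no overlap. It was among the liver transcripts set aside, and its log2 fold change went from -2.27 to -1.20 without IL-27 replicate 1, which had the 68.9 CPM. The retinoid list had 12 of 25 genes above 0 and a median of -0.02.

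Msln, which encodes mesothelin, lay at 39.5 to 51.8 CPM in the 27pepL arms, and at 31.7 CPM in IL-27 replicate 1 and 74 to 152 in the other 3 IL-27 libraries. Its log2 fold change was -1.12 with the 8 libraries and -1.41 without IL-27 replicate 1 (unadjusted p = 0.000958 in edgeR's test). Rbp4 and Msln were picked after their values were seen.

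The remaining lists had median log2 fold changes of 0.14 for hypoxia and glycolysis, 0.05 for D cyclins and inhibitors, 0.04 for prostate tumor epithelium and EMT, 0.05 for RAS-MAPK feedback, -0.03 for matrix metalloproteinases, -0.07 for collagen and fibroblast, -0.08 for immediate early genes, -0.12 for cholesterol synthesis, -0.16 for fatty acid oxidation, -0.31 for the IL-18 and IL-1 family axis, -0.39 for the IL-27 and IL-6 receptor axis, -0.55 for triacylglycerol metabolism and -0.59 for LXR targets, beside -0.09 for all genes. Without IL-27 replicate 1 these medians were, in the same order, 0.05, 0.02, 0.06, -0.05, 0.31, 0.39, -0.002, -0.26, 0.04, 0.10, 0.12, -0.17 and -0.02, so that 5 of them turned from below to above 0 and that of RAS-MAPK feedback from above to below. Cytosolic ribosomal protein genes, 25 of 49 above 0, had a median at 0.005, and at -0.19 without that library.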
